A study of Homo sapiens with 16 samples.

Results

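The SNARE proteins and their regulators were measured over time in SUM225, a breast cancer cell line with amplified and over expressed HER2, after the addition of 1 µM CP724,714, a small molecule that inhibits the HER2 kinase. Members were chosen by gene symbol, which took the VAMP, STX and STXBP families, SNAP23, SNAP25 and SNAP29, NSF and its SNAP adaptors, and the Golgi SNAREs, and those described had 55 of the 24526 probes on the array. A probe was tested when its detection p-value was under 0.05 on at least 3 of the 16 arrays. This left 50 of the 55 probes, for 38 of 40 genes, among 16110 probes tested in all. STX7 and STXBP6 had no tested probe.

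Parallel cultures were taken at 3 h intervals up to 45 h, each giving total RNA for 1 Illumina bead array. The 0 h array was the only one without time in the inhibitor, and all others received the same dose. All arrays came from a single cell line. The labels give its medium as Ham's F-12 with serum, insulin and hydrocortisone, while the study's methods describe one without insulin or EGF for this line, and which applied was not settled. An untreated course was not analysed here, and the inhibitor, time in culture and the change of medium at the start of treatment cannot be told apart. Each time point had 1 array, and the errors given are SE values of a fit to the 16 arrays together. The median signal was between 242 and 384, and 57.5% to 61.5% of probes were detected. Of the epithelial markers of these cells, 8 of 8 genes were detected on every array, ERBB2, KRT19 and CDH1 among them, with a summed signal of 234538 to 347127. Of 11 markers of other cell types, CD68, ENO2, PECAM1 and SNAP25 were detected on all arrays, CD3E, PDGFRB, PTPRC and SYP on fewer than 3, and their summed signal was 4068 to 5757. Single markers moved within these sums, and their part in the results was not tested. VWF, of endothelium, rose by 2.51 ± 0.28 and was detected on 13 arrays, CD68, of macrophages, rose by 0.38 ± 0.14 on its brighter probe, and ENO2, of neurons and glycolysis, fell by 2.03 log2 units (SE 0.19). Of the epithelial keratins, KRT8 fell by 0.68 and the brighter KRT18 probe by 0.74 log2 units (SE 0.10 each).

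SNARE proteins drive the fusion of vesicles with their target membranes. An R-SNARE, usually on the vesicle, zips into a bundle of helices with the Qa, Qb and Qc helices of the target membrane, and a Qbc protein such as SNAP23 supplies both of the last. NSF, an ATPase, is brought to the spent bundle by SNAP adaptors and takes it apart. Sec1/Munc18 proteins such as STXBP3 hold and guide syntaxins of the Qa class, while some syntaxins, such as STX6, are Qc members. In cells that respond to insulin, VAMP2, STX4, SNAP23 and this Munc18 form act where vesicles carrying the glucose transporter GLUT4 reach the plasma membrane.

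The members with the largest rise and the largest fall were VAMP5 and STX2, and VAMP8 was the member followed in the study itself. Their promoters are shown because VAMP8 and VAMP5 are direct neighbours on chromosome 2, in the order GGCX, VAMP8, VAMP5 and RNF181, and both rose. Each sequence is from RefSeq (GRCh38.p14), holds 250 bases before to 50 bases after the start of the gene, and is written 5′ to 3′ on the strand of the gene. Capitals mark CACGTG, the E-box core, which reads the same on both strands.
VAMP8, chr2:85577336-85577635, plus strand: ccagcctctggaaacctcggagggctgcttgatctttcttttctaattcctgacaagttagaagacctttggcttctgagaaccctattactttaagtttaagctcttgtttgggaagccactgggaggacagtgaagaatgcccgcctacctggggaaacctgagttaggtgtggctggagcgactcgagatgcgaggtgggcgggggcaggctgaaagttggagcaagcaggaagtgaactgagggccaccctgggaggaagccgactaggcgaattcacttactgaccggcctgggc
VAMP5, chr2:85584181-85584480, plus strand: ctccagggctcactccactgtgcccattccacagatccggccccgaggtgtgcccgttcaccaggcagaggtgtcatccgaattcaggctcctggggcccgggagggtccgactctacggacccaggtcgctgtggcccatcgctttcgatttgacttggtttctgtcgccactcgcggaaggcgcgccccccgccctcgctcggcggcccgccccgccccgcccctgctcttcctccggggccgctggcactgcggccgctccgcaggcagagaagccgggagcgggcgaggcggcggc
STX2, chr12:130839201-130839500, minus strand: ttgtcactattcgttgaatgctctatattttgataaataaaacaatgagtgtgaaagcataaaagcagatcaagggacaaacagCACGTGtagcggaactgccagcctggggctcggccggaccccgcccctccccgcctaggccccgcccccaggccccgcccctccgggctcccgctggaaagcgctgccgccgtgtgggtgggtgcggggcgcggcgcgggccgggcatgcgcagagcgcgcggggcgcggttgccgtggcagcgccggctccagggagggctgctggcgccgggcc

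The neighbours differed in composition. The VAMP8 promoter held 54.3% G and C with 9 CpG, below the median of 58.7% over 35116 promoters, and the VAMP5 promoter held 71.7% with 32 CpG. The STX2 promoter held 68.0% with 31 CpG and a CACGTG starting 166 bases before the gene. CACGTG was found in the promoters of 8 of 37 member genes that had one (21.6%), which were GOSR2, NAPA, SNAP29, STX18, STX2, STX4, STX6 and STXBP2, and in 7.26% of all promoters. These genes moved in both directions or had no trend. The forkhead core, searched as TGTTTAC or GTAAACA, was found for STX7 and VAMP7 (5.41% of member genes) and in 3.42% of all promoters. The 35116 promoters were not limited to genes tested here and were not matched for G and C. The member shares and these shares are therefore not of like sets, and a match is a description of these letters.

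The SNARE probes rose more often than they fell. Over 45 h, 25 of 50 rose, 7 fell and 18 did not pass the test, in a limma fit of a cubic course in hours with Benjamini-Hochberg adjustment over all probes tested. Among all probes tested, 47.7% had such a trend, with 26% rising and 21.7% falling. The share of rising members (50%) was above and that of falling members (14%) below this background. The median linear change, which is the fitted straight-line part of the course from 0 h to 45 h on the log2 scale, was 0.34 for members and 0.05 for all probes tested. A change of 1 log2 unit or more was rare: 1 member probe rose and 2 fell by that much, against 5.66% and 6.9% of all probes. Both falls were of STX2, and neither was that large without background correction. Of these probes, 1 passed the detection filter only through the hours at which it was high, and the counts of falls include it. By gene, 24 of 38 had at least 1 rising probe and 5 at least 1 falling probe. The course depended on time for 33 members (66%, background 51.3%) and departed from a straight line for 15 (30%, background 19.3%), or for 8 without the 0 h array and 9 without the 3 h array. Members scattered around their courses with a median residual SD of 0.15 log2 units, against 0.19 for all probes.

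**Figure D1:**
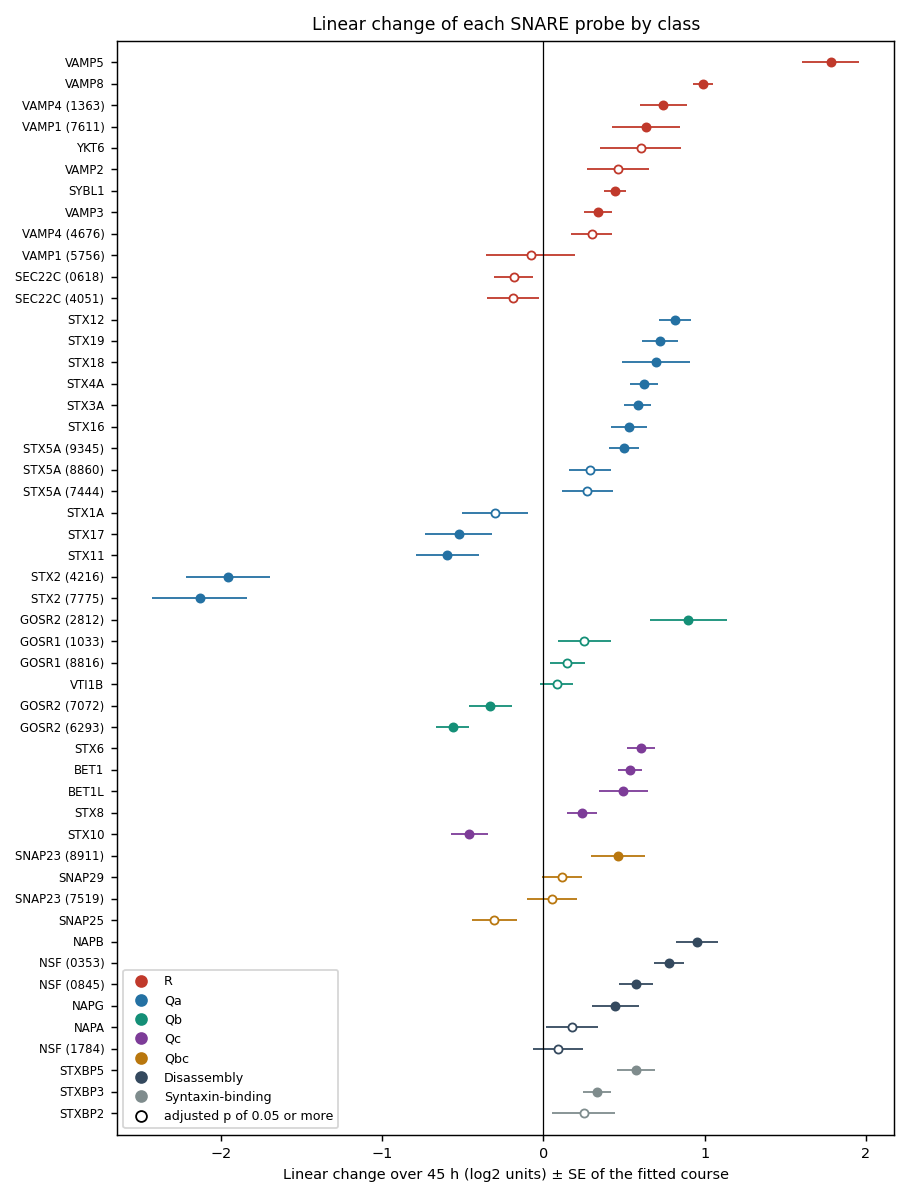
Linear change over 45 h (log2 units, horizontal axis) of each of the 50 tested SNARE probes, ordered within SNARE class, with bars of ± 1 SE from the fit over 16 arrays. Filled points passed the test at an adjusted p under 0.05 and open points did not, and the last 4 digits of the probe name are given where a gene had several probes. VAMP5 lies farthest to the right at 1.78 and the 2 STX2 probes farthest to the left at -2.13 and -1.96.

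Every class other than R and Qa had 3 to 6 tested probes, so its counts are a description. Among the R-SNAREs, 6 of 12 probes rose (50%, background 26%) and none fell (background 21.7%), with a median of 0.45. VAMP5, a plasma membrane SNARE first described in differentiating muscle, moved most. The VAMP5 values (ILMN_1809467) from 0 h to 45 h in steps of 3 h were 10.08, 10.19, 10.57, 10.98, 10.63, 10.58, 10.91, 10.76, 11.66, 11.79, 11.74, 11.76, 11.64, 11.72, 11.88 and 11.61 on the log2 scale. They fell into 2 levels, with the 8 arrays up to 21 h at 10.98 or below and the 8 from 24 h at 11.61 or above, and the ranges did not overlap. The linear change was 1.78 ± 0.18 (adjusted p = 1.05e-07), and the mean of 24 to 33 h was 1.02 ± 0.14 above that of 12 to 21 h (adjusted p = 0.00015). With a term for a step from 21 to 24 h in the fit, the linear change was 0.44 (adjusted p = 0.357).

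VAMP8, which serves late endosomes, lysosomes and regulated secretion, was by far nearer the top of the scale, with a signal of up to 57.4% of the brightest probe of an array. Its values (ILMN_2190084) were 14.14, 14.25, 14.49, 14.60, 14.70, 14.70, 14.72, 14.74, 14.78, 14.83, 14.82, 14.89, 15.08, 15.10, 15.07 and 15.53. The course was a climb up to 12 h, a stretch between 14.70 and 14.89 from 12 h to 33 h, and a further climb from 36 h, and it departed from a straight line (adjusted p = 0.00588). The 4 arrays from 36 h lay above the 12 before them. VAMP8 was the only member called between the last 2 windows, with a difference of 0.37 ± 0.10 (adjusted p = 0.0354). The linear change of VAMP8 was 0.99 ± 0.06 (adjusted p = 3.2e-10), and without the 45 h array, where it was highest, it was 0.88 ± 0.06.

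**Figure D2:**
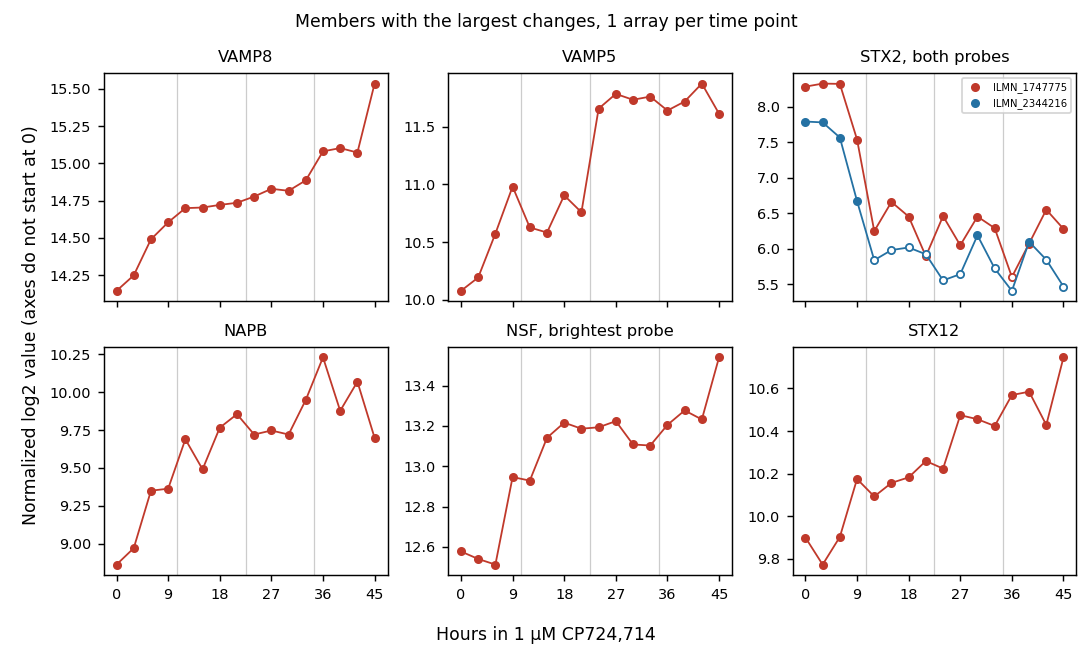
Normalized log2 value (vertical axis) against hours in 1 µM CP724,714 (horizontal axis) for VAMP8, VAMP5, both STX2 probes, NAPB, the brightest NSF probe and STX12, with 1 array per time point. Lines join the arrays, grey lines separate the 12 h windows, and open points are arrays on which the probe was not detected. VAMP5 steps up between 21 h and 24 h, and STX2 steps down between 6 h and 12 h.

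The other rising R-SNAREs changed less. VAMP4, of the trans-Golgi network, rose by 0.74 ± 0.14 on ILMN_1761363 (adjusted p = 0.000286), while its other probe, ILMN_1804676, gave 0.30 ± 0.13 (adjusted p = 0.058). SYBL1, now named VAMP7 and a SNARE of lysosomal exocytosis, rose by 0.45 ± 0.07, and VAMP3, of recycling endosomes, by 0.34 ± 0.09. VAMP1, a synaptobrevin of secretory vesicles, took another course. Its probe ILMN_1737611 went from 8.58 at 0 h to its highest value, 10.27, at 21 h and was at 9.44 at 45 h, and its linear change was 0.64 ± 0.21 (adjusted p = 0.0181). That change was not called without the 0 h array (0.39) or the 3 h array (0.41). The second VAMP1 probe, ILMN_2405756, was detected on 12 arrays and gave -0.08 ± 0.27. Both probes had their highest window mean at 12 to 21 h. YKT6, a lipid-anchored SNARE of the Golgi, gave 0.60 ± 0.25 (adjusted p = 0.0546).

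SEC22C, of the Sec22 family of the endoplasmic reticulum, had no linear trend on either probe (-0.19 on both). Its values on ILMN_1664051 were 11.24 at 6 h and 11.23 at 9 h and between 10.41 and 10.88 on the other arrays. ILMN_2290618 read 11.87 and 11.80 at those hours and no more than 11.54 elsewhere. The 6 h and 9 h arrays were thus the highest on both probes. The difference between 12 to 21 h and 0 to 9 h passed the test on the first (-0.48 ± 0.11, adjusted p = 0.00328) and not on the second (-0.25 ± 0.10, adjusted p = 0.058).

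The Qa class, made up of syntaxins, held the largest falls. Of its 14 probes, 7 rose (50%, background 26%) and 4 fell (28.6%, background 21.7%), with a median of 0.39. STX2, or epimorphin, a plasma membrane syntaxin also needed at the end of cell division, fell on both of its probes. ILMN_1747775 read 8.28, 8.33, 8.32, 7.54, 6.25, 6.66, 6.46, 5.90, 6.46, 6.05, 6.46, 6.29, 5.60, 6.07, 6.55 and 6.28. It was detected on 14 arrays, and the 4 arrays up to 9 h, at 7.54 or above, did not overlap with the later ones, at 6.66 or below. The linear change was -2.13 ± 0.29 (adjusted p = 6.26e-06), and the step from 0 to 9 h to 12 to 21 h was -1.80 ± 0.22 (adjusted p = 8.02e-06).

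The second STX2 probe separated the same arrays. ILMN_2344216 read 7.79, 7.78, 7.57, 6.67, 5.84, 5.98, 6.02, 5.92, 5.56, 5.64, 6.19, 5.73, 5.41, 6.10, 5.85 and 5.47, and it was detected up to 9 h and then only at 30 h and 39 h. This probe thus passed the filter of 3 arrays only through the hours at which it was high, and it is not separate support for the fall. Its linear change was -1.96 ± 0.26, and it was at least 2.93-fold lower at 45 h than at 0 h, counted against the lowest detected signal at 45 h. After 12 h both probes were near the background, so the size of the fall is limited by the array. Without background correction the linear changes were -0.99 (ILMN_1747775) and -0.78 (ILMN_2344216), both still called.

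STX11, which serves granule release in immune cells, gave -0.60 ± 0.20 (adjusted p = 0.0172) but was detected on only 6 arrays, of which 3 were at 0 h, 3 h and 6 h, and leaving out any of those 3 arrays ended the call (-0.54, -0.53 and -0.50). STX17, of the autophagosome, gave -0.53 ± 0.21 (adjusted p = 0.0427), with its highest value, 8.17, at 6 h, and 9 of the 16 fits that leave out 1 array (-0.40 without 6 h) and the fit after median scaling (-0.49) did not call it. Both were dim, and STX1A, the neuronal syntaxin, gave -0.30 ± 0.21 with no call.

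The rising Qa syntaxins were STX12, STX19, STX4A, STX3A, STX16, STX18 and STX5A, which serve different membranes. STX12, of recycling endosomes, read 9.90, 9.77, 9.90, 10.17, 10.09, 10.16, 10.18, 10.26, 10.22, 10.47, 10.46, 10.42, 10.57, 10.58, 10.43 and 10.75, with every array from 27 h above every array before it, and rose by 0.81 ± 0.10 (adjusted p = 1.4e-06). STX19, found mainly in epithelia, rose by 0.72 ± 0.11, from 10.41 at 0 h and 10.52 at 3 h to at least 11.07 on all later arrays. STX4A, now STX4, the basolateral syntaxin at which GLUT4 vesicles dock, rose by 0.62 ± 0.09, and STX3A, now STX3, the apical syntaxin, by 0.58 ± 0.08. STX4A was called between 12 to 21 h and 24 to 33 h (0.30 ± 0.09, adjusted p = 0.0447), and STX3A already between 0 to 9 h and 12 to 21 h (0.24 ± 0.07, adjusted p = 0.0125). STX16, of the trans-Golgi network, rose by 0.53 ± 0.11, and STX18, of the endoplasmic reticulum, by 0.70 ± 0.21.

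STX5A, now STX5, the syntaxin of the early Golgi, had 3 probes. The brightest, ILMN_1749345, rose by 0.50 ± 0.09 (adjusted p = 0.000145), while ILMN_1808860 gave 0.29 ± 0.13 (adjusted p = 0.0776) and ILMN_1777444 gave 0.27 ± 0.16 (adjusted p = 0.17). All 3 depended on time. The latter pair fell at 45 h and were called without that array, as given below.

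**Figure D3:**
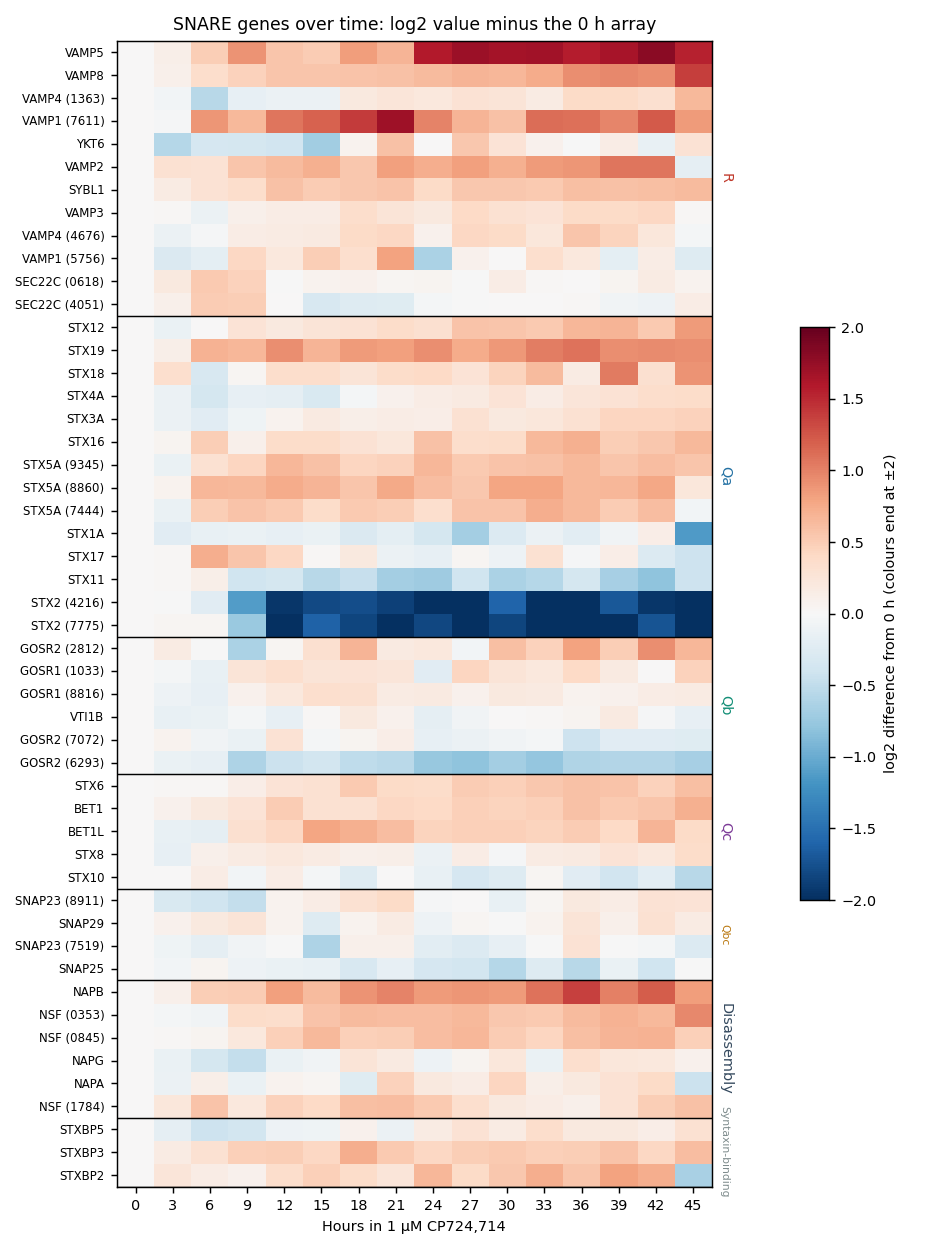
Difference in log2 value from the 0 h array (colour, ends at ±2) for the 50 tested SNARE probes in rows by SNARE class, against hours in 1 µM CP724,714 in columns. The STX2 rows are the darkest falls from 12 h on, the VAMP5 row the strongest rise from 24 h on, and most other rows change by less than 1 log2 unit.

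The Qb class held the Golgi SNAREs GOSR1 and GOSR2 and the endosomal VTI1B. Among its 6 probes were 1 rise (16.7%, background 26%), 2 falls (33.3%, background 21.7%) and 3 probes without a trend. The 3 GOSR2 probes, for a SNARE of traffic from the endoplasmic reticulum to the Golgi also named membrin, disagreed. The brightest, ILMN_1656293, fell by 0.56 log2 units (SE 0.10, adjusted p = 0.000134), from 11.75 at 0 h to 11.08 at 45 h, with its lowest value, 10.94, at 27 h, but by only 0.10 with the step from 21 to 24 h as a term. ILMN_1807072 gave -0.33 ± 0.13 (adjusted p = 0.0467), and 13 of the 16 fits that leave out 1 array did not call it, with estimates from -0.37 to -0.28. The dim ILMN_1722812, detected on 15 arrays, rose by 0.90 ± 0.24 (adjusted p = 0.00424), or by 0.35 without background correction. No direction is therefore given for the gene. GOSR1 had no linear trend on either probe (0.15 ± 0.11 and 0.25 ± 0.17), but ILMN_1798816 was higher at 12 to 21 h than at 0 to 9 h by 0.30 ± 0.09 (adjusted p = 0.0167). VTI1B gave 0.08 ± 0.10.

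All 5 Qc probes had a linear trend, 4 up (80%, background 26%) and 1 down (20%, background 21.7%), with a median of 0.50. STX6, a trans-Golgi and endosome syntaxin, rose by 0.61 ± 0.09 (adjusted p = 8.26e-06). BET1, of traffic into the Golgi, rose by 0.54 ± 0.07 (adjusted p = 4.74e-06), from 12.30 at 0 h to 13.01 at 45 h. BET1L, its kin within the Golgi, rose by 0.50 ± 0.15, and STX8, of late endosomes, by 0.24 ± 0.09 (adjusted p = 0.0391). STX10, also of the trans-Golgi network, was the exception and fell by 0.46 log2 units (SE 0.12, adjusted p = 0.00291). Its mean was 11.47 ± 0.09 (SD of 4 arrays) at 0 to 9 h and 11.10 ± 0.16 at 36 to 45 h.

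The Qbc proteins changed least, with 1 of 4 probes called (25%, background 47.7%) and a median of 0.08. SNAP23, the widely expressed partner of plasma membrane syntaxins, rose by 0.46 ± 0.17 on ILMN_1748911 (adjusted p = 0.03), and the fits without 3 h, 6 h, 9 h, 42 h or 45 h did not call it (0.38 to 0.45), nor did the fit after cyclic loess (0.38, adjusted p = 0.0604). The brighter SNAP23 probe, ILMN_1687519, gave 0.05 ± 0.15 (adjusted p = 0.806). SNAP25, the neuronal form, gave -0.30 ± 0.14, and SNAP29, which joins STX17 and VAMP8 on autophagosomes, gave 0.11 ± 0.13. A trend was therefore called for a single probe of this class, and the other SNAP23 probe did not share it.

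Of the genes that take SNARE bundles apart, 4 of 6 probes rose (66.7%, background 26%) and none fell (background 21.7%), with a median of 0.51. NSF had 3 probes. The brightest, ILMN_1680353, read 12.58, 12.54, 12.51, 12.95, 12.93, 13.14, 13.22, 13.19, 13.19, 13.22, 13.11, 13.10, 13.21, 13.28, 13.23 and 13.54, with every array from 15 h above every array before it, and rose by 0.78 ± 0.09 (adjusted p = 1.42e-06). ILMN_2330845 rose by 0.57 ± 0.11, and the dimmest, ILMN_2251784, gave 0.09 ± 0.15 (adjusted p = 0.674). The pair that rose was called between 0 to 9 h and 12 to 21 h, by 0.47 ± 0.10 and 0.45 ± 0.09.

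The adaptors differed. NAPB, the beta form best known from brain, read 8.86, 8.97, 9.35, 9.36, 9.69, 9.49, 9.77, 9.85, 9.72, 9.75, 9.72, 9.95, 10.23, 9.88, 10.07 and 9.70, and rose by 0.95 ± 0.13 (adjusted p = 6.39e-06). Its 4 lowest arrays were those from 0 h to 9 h. NAPG, the gamma form, rose by 0.45 ± 0.15 (adjusted p = 0.0176), and NAPA, the alpha form used throughout the cell, gave 0.18 ± 0.16 with no call.

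Of the syntaxin-binding proteins, 2 of 3 probes rose (66.7%, background 26%) and none fell (background 21.7%), and all 3 depended on time (background 51.3%). STXBP3, or Munc18c, the partner of STX4, rose by 0.33 ± 0.09 (adjusted p = 0.0039), and STXBP5, or tomosyn, which blocks SNARE assembly, by 0.57 ± 0.12 (adjusted p = 0.000506). STXBP2, the Munc18 form of epithelia and immune cells, gave 0.25 ± 0.20 but departed from a straight line (adjusted p = 0.0271).

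More members, as more of all probes, were called between the first windows than later, 18 of 50 (36%) against a background of 29.8%. Between 0 to 9 h and 12 to 21 h, 15 probes rose and 3 fell, against a background of 15.9% and 13.9% of all probes. The rising probes were those of STX19, STX3A, STX5A, GOSR1, BET1, BET1L, STX6, SNAP23, SYBL1, VAMP1, VAMP8, NAPB, NSF and STXBP3, of which NSF had 2, and the falling ones were those of STX2, which had 2, and SEC22C. Between 12 to 21 h and 24 to 33 h, VAMP5 and STX4A rose and none fell (background 4.21% and 3.36%, together 7.57%), and between 24 to 33 h and 36 to 45 h VAMP8 rose and none fell (background 0.72% and 2.82%, together 3.54%). The median member difference was 0.25, 0.00 and 0.06 in turn, and that of all probes 0.04, -0.01 and 0.02. In all, 20 of 50 probes were called in at least 1 of these contrasts (background 34.8%).

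**Figure D4:**
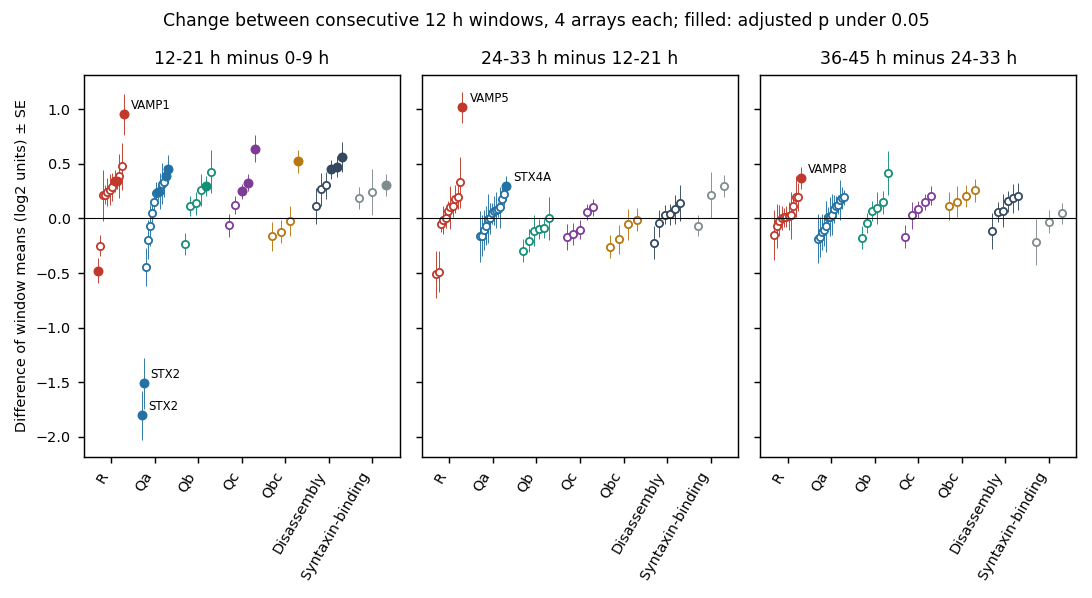
Difference of mean log2 value between consecutive 12 h windows of 4 arrays each (vertical axis, points with bars of ± 1 SE) for the 50 tested SNARE probes by class, with 1 panel per step. Filled points passed the test at an adjusted p under 0.05, and the first panel holds 15 such rises and 3 falls, the second 2 rises and the last 1 rise.

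With a separate level for each 12 h window in the fit, the median linear change of the members was 0.33 against 0.34 without it, and the median SE was 0.57 against 0.13. VAMP8 gave 1.27 ± 0.36, VAMP5 1.56 ± 0.58, the brightest NSF probe 0.94 ± 0.41 and STX12 0.91 ± 0.43. The estimates were thus of like size for these members, with wider errors. Others shrank. The STX2 probes gave -0.41 ± 1.08 and -0.87 ± 1.13 in place of -2.13 and -1.96. STX16 gave 0.09 ± 0.47 in place of 0.53, and GOSR2 ILMN_1722812 gave 0.05 ± 0.97 in place of 0.90. In that fit 0 of 50 members kept a called linear trend in limma (0.9% of all probes), 7 had an unadjusted p under 0.05 (14.7% of all probes), and the estimate had the same sign as before for 26 of the 32 called members. The windows coincide with time, so a difference between sets of arrays and a difference between hours cannot be told apart here.

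The 45 h array decided some calls. From 42 h to 45 h, 6 members fell by more than 0.5 log2 units and 1 rose, against 10.4% and 8.3% of all probes. The root mean square step was the widest of the course for members (0.44). For all probes it was 0.42, as it was from 9 h to 12 h (0.42). The 45 h array also had the fewest detected probes, 14110, close to the 14160 at 6 h. VAMP2, the synaptobrevin of GLUT4 vesicles, climbed from 8.33 at 0 h to 9.40 at 42 h and was at 8.15 at 45 h. STXBP2 went from 11.50 to 10.12 in that step, STX1A fell by 1.27 log2 units and NAPA by 0.80. These 4 genes had their lowest value of the course at 45 h, and the part of the array in this was not tested.

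**Figure D5:**
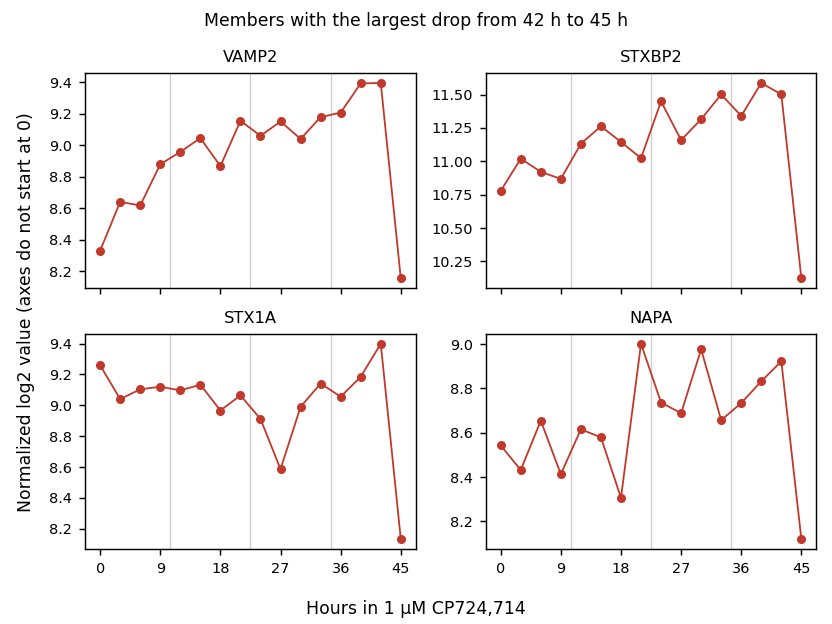
Normalized log2 value (vertical axis) against hours in 1 µM CP724,714 (horizontal axis) for VAMP2, STXBP2, STX1A and NAPA, the 4 members that dropped most between 42 h and 45 h, with 1 array per time point, lines joining the arrays and grey lines between the 12 h windows. VAMP2 drops by 1.24 and STXBP2 by 1.38 log2 units at the last array.

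Without the 45 h array, VAMP2 rose by 0.90 ± 0.11 (adjusted p = 3.57e-06) in place of 0.46 ± 0.19 (adjusted p = 0.0531), which was also called without background correction (0.35) or with array weights (0.75). STXBP2 rose by 0.74 ± 0.12 (adjusted p = 5.54e-05) in place of 0.25 ± 0.20 (adjusted p = 0.317). The dimmer STX5A probes rose by 0.53 ± 0.15 and 0.50 ± 0.12, and the VAMP4 probe ILMN_1804676 by 0.48 ± 0.14. In that fit 29 members rose and 6 fell.

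The members whose courses were most like that of VAMP8 over the 16 arrays were BET1 (Pearson r = 0.95), STX12 (0.93) and the brightest NSF probe (0.89). Of all probes tested, 0.137%, 0.391% and 2.07% had an r with VAMP8 at least as high. The lowest were the STX2 probes (-0.81 and -0.75) and STX10 (-0.74). These values share the same arrays and the same order in time and are a description.

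The machinery that works with the SNAREs was counted over 97 tested probes of 76 genes, of which 40 rose (41.2%) and 9 fell (9.28%), with a median linear change of 0.25, where 26% of all probes rose and 21.7% fell. Of the tethers that bring a vesicle to its target, 6 of 13 probes of the exocyst (46.2%), 10 of 15 of HOPS and CORVET (66.7%) and 7 of 9 of COG (77.8%) rose, above the share of all probes. For GARP, 1 of 5 probes rose (20%, against 26% of all probes), a count too small to set apart from that share. None of these tether probes fell. VPS41, a HOPS subunit for fusion with lysosomes, rose on all 4 of its probes, by 0.45 to 1.39, and COG6, of the Golgi tether, rose by 0.99 ± 0.11. Of the synaptotagmins and their kin, calcium and lipid binding proteins, 8 of 21 rose and 1 fell, with FAM62B at 0.91 ± 0.09 and FAM62A at -0.66 ± 0.10. Of the RAB GTPases, which mark membranes, 5 of 14 rose and 2 fell, with RAB8B at 0.89 ± 0.11 and RAB3D at -1.14 ± 0.20. Priming factors and complexins had 2 of 10 probes rising (20%, near the 26% of all probes) and 1 falling. Among the other Sec1/Munc18 proteins, 1 of 3 probes rose and none fell.

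The 2 groups with no rise were small, at 3 and 4 tested probes, so their counts are a description. BNIP1, a SNARE of the endoplasmic reticulum outside the symbol rule, fell on both of its probes, by 0.79 and 0.58 log2 units (SE 0.12 and 0.11), and the third probe tested in its group was not called. Of the GLUT4 traffic genes, 3 of 4 tested probes fell and none rose, with TBC1D4, the substrate of AKT that restrains GLUT4 vesicles, at -0.85 ± 0.12, LNPEP, a cargo of these vesicles, at -0.57 ± 0.11, and ASPSCR1, which tethers them, at -0.65 ± 0.19 on its called probe and -0.19 ± 0.12 on the other. The called ASPSCR1 probe was dim, with a signal of 268 to 439, while the other read 5459 to 9984. The transporter gene itself, SLC2A4, was detected on 2 arrays and was not tested.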

How the data were processed

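The deposited table gave a signal intensity for each probe and array, which the authors had neither background-corrected nor normalized, and a deposited detection p-value. The study's methods name the Illumina human Ref8v2 array and quantile normalization, which the table precedes. The scanning software and a genome build were not given in the sources used here. Signals were background-corrected with the negative controls inferred from detection p-values, an offset of 16 added, quantile-normalized and log2-transformed (neqc, limma 3.58.1, R 4.3.3). The offset shrinks changes of dim probes. Probes detected on at least 3 arrays were fitted with a cubic in hours and, separately, with 4 window means (lmFit and eBayes with trend, two-sided, adjusted over 16110 probes, threshold 0.05). Both fits were also run on simulated data with independent noise. Those data held no shared difference between sets of arrays, so they cannot show how the fits behave under one. All 40 symbols matched RefSeq, where STX3A, STX4A, STX5A and SYBL1 are STX3, STX4, STX5 and VAMP7.

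Members, classes and other lists were chosen with earlier results of these data known. The rule also takes a gene that is not reported here, and member counts do not include it. Described in full were VAMP8, the 6 largest called rises and falls, probes called only for curvature and genes whose probes disagreed. SEC22C and the members that dropped at 45 h were added after their values were seen. The alternatives were other background, offset, normalization, filter, weights and time courses, and each array left out. Python 3.11.15 and matplotlib 3.10.9 drew the figures.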

Additional observations from a re-analysis of the deposited data

How the results depend on the processing

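The counts of members with a linear trend (32), that depend on time (33), that are curved (15) and that differ between windows (20) stayed within 1.5 times under other background, offset, normalization, filter and weight settings. The linear count was 0 with the 12 h set as a factor and 17 with a term for a step from 21 to 24 h, while the median member change was 0.33 and 0.56, against 0.34. With 1 array left out, the linear count was 26 to 35, the time-dependent count 29 to 34, the curved count 8 (without 0 h; 9 without 3 h) to 17, and the window count 17 to 26. With the 12 h set as a factor the sign turned for 15 of 50 members, 6 of them called. These were STXBP5 (-0.19), NAPG (-0.39), VAMP3 (-0.083), NAPA (-0.37), SNAP25 (0.34), SEC22C (0.63 and 0.84), STX17 (0.22), VAMP2 (-0.33), STXBP2 (-1.39), GOSR2 ILMN_1807072 (0.0074), NSF ILMN_2330845 (-0.18), SNAP23 ILMN_1687519 (-0.11), VAMP1 ILMN_2405756 (1.80) and VAMP4 ILMN_1804676 (-0.047), none with an adjusted p under 0.05. VAMP1 ILMN_2405756 was also positive with the step as a term (1.82) and with array weights (0.17), and SNAP23 ILMN_1687519 was negative under cyclic loess (-0.023). Without 1 array, these probes ranged from -0.23 to 0.051 and from -0.030 to 0.14, and NSF ILMN_2251784 from -0.047 to 0.16. The cause was not tested. No paired analysis was possible because no time point held more than 1 array. Signals near background limited STX2, STX11, YKT6 and the dim probes of GOSR2 and VAMP1. Without background correction the linear change was -0.99 and -0.78 for the STX2 probes, -0.20 for STX11 and 0.35 for GOSR2 ILMN_1722812.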
